A study of Homo sapiens with 6 samples.

Results

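Histone genes of the clustered families were compared between DU145 cells given the solvent DMSO and cells given CCS1477. A gene was included if its symbol began with HIST1H, HIST2H, HIST3H or HIST4H, its description lacked the word pseudogene, and it had a count above 0 in any of the 6 libraries. This gave 54 of the 25192 genes with a count, of which 13 lay on chromosome 1, 40 on chromosome 6 and 1, HIST4H4, on chromosome 12. By class there were 5 genes for the linker histone H1, 15 for H2A, 15 for H2B, 10 for H3 and 9 for H4. The files held 89 genes with such symbols. Of these, 19 were described as pseudogenes and 16 others had no count.

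DU145 is an established human prostate cancer cell line, labelled wild type, and CCS1477 (inobrodib) blocks the bromodomain shared by CBP and p300, a pair of histone acetyltransferases. The 3 DMSO libraries and the 3 libraries from cells given 1 µM CCS1477 were all taken at 24 h. The RNA was purified on poly-T beads before library preparation. The series asked how CCS1477 changed the transcriptome. Whether each replicate was a culture of its own is not in the labels. The p-values therefore reflect the spread among these libraries alone, and that spread may be technical.

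Core histones H2A, H2B, H3 and H4 form the protein spool of the nucleosome, and H1 binds the DNA that enters and leaves it. Most of their genes lie in a large cluster on chromosome 6 (HIST1) and a smaller one on chromosome 1 (HIST2), have no introns, and are transcribed mainly in S phase, when new DNA must be packaged. Their main mRNAs end in a stem-loop and carry no poly-A tail, whereas some genes also yield longer, polyadenylated transcripts. Poly-T beads favour the latter form, so the values below need not follow the total histone mRNA.

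Library totals ran from 8286880 to 11956734 estimated counts. A count of 3, taken as the floor, corresponded to 0.251 to 0.362 CPM (counts scaled to library size), which covers counting error only. The epithelial keratin gene KRT8 had 682 to 758 TPM (a level scaled by transcript length), while KLK3, PTPRC, CD3E, PECAM1 and DCN had no count in any library. The blood marker CD68 and the fibroblast marker COL1A1 had mean CPM of 44.9 and 18.1 in DMSO and 30.4 and 15.6 in CCS1477. The epithelial markers CDH1, KRT7 and KRT19 fell, with log2 fold changes of -1.17, -0.53 and -0.34 and adjusted p values of 1.64e-05, 0.0011 and 0.021 (edgeR quasi-likelihood test, Benjamini-Hochberg). Their part in the results below was not tested.

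Histone genes on both chromosomes were higher after CCS1477, with the larger fold changes in the HIST2 cluster on chromosome 1. Of the 26 members with enough counts to be tested, 12 rose, 0 fell and 14 did not pass (edgeR quasi-likelihood test, Benjamini-Hochberg adjusted p under 0.05). Of all 14928 genes tested, 7.23% rose and 10.7% fell. The 12 comprised 6 of 9 tested members on chromosome 1 and 6 of 17 on chromosome 6. The lowest CCS1477 library was above the highest DMSO library for 17 tested members, 7 on chromosome 1 and 10 on chromosome 6, and the reverse held for 0. Over all tested genes these shares were 16.5% and 19.3%. Of the 26, 7 entered with fewer than 3 DMSO libraries above the 1.10 CPM needed, and none of those 7 passed the test. HIST1H3B and HIST1H4I, which are among those 7, are also among the 17 without overlap. They entered only through the group where they were higher, so they lend no weight to that number. In bulk RNA, more cells that express a histone gene and more of its RNA per cell cannot be told apart.

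**Figure D1:**
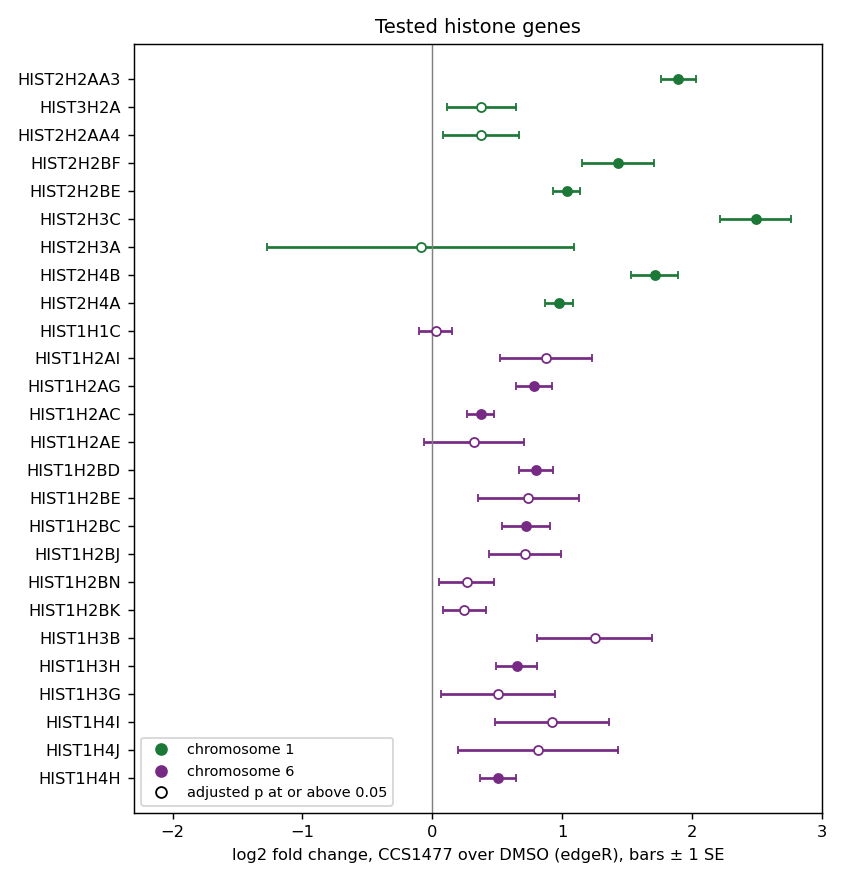
Log2 fold change (CCS1477 over DMSO, x axis) of the 26 tested histone genes, ordered by chromosome and class, with bars of 1 SE; filled points passed the adjusted p threshold of 0.05. All points but HIST2H3A, at -0.09 with an SE of 1.18, lie to the right of 0, from 0.03 for HIST1H1C to 2.49 for HIST2H3C.

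On chromosome 1, 3 pairs of HIST2 genes are near-identical copies in opposite orientation, so reads cannot be assigned to 1 copy with confidence, and the copies were summed before testing. HIST2H2AA3 (149842188 to 149842736, minus strand) and HIST2H2AA4 (149851061 to 149851624, plus strand) encode H2A. HIST2H3C (149839538 to 149841193, minus strand) and HIST2H3A (149852619 to 149854274, plus strand) encode H3. HIST2H4A (149832659 to 149839767, plus strand) and HIST2H4B (149854045 to 149861210, minus strand) encode H4. The positions are those of the files, which matched GENCODE 29 on GRCh38 for 52 of the 54 members. In each pair the GENCODE transcripts compared were identical over 100% of the shorter one. The 250 bases upstream of the starts were 99.2%, 96.9% and 100% identical for the H2A, H3 and H4 pairs.

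The stretches of 130 bases before the transcription start are shown for 1 copy of each pair, for HIST2H2BE as the chromosome 1 H2B gene with the highest level, for HIST1H2BD as the chromosome 6 gene with the largest log2 fold change among those that passed, and for HIST1H1C, which did not pass. They come from RefSeq on GRCh38.p14, read 5′ to 3′ on the gene's strand, with capitals marking CCAAT (or ATTGG, its reverse complement), TATAAA and the octamer ATTTGCAT.
HIST2H2AA3, chr1:149842751-149842880, minus strand: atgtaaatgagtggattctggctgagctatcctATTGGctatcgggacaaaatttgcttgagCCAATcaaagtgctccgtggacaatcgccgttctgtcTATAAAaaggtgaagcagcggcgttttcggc
HIST2H3C, chr1:149841209-149841338, minus strand: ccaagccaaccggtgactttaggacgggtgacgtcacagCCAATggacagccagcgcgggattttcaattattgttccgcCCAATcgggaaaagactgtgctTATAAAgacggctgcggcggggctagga
HIST2H4A, chr1:149832527-149832656, plus strand: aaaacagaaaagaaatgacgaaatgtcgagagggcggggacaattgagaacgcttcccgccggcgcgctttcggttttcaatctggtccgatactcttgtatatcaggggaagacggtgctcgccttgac
HIST2H2BE, chr1:149886683-149886812, minus strand: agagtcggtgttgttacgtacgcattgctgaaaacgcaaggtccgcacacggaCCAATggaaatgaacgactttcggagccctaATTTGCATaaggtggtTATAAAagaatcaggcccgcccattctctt
HIST1H2BD, chr6:26157991-26158120, plus strand: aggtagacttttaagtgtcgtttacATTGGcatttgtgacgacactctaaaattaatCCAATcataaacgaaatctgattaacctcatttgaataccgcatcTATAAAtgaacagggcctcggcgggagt
HIST1H1C, chr6:26056471-26056600, minus strand: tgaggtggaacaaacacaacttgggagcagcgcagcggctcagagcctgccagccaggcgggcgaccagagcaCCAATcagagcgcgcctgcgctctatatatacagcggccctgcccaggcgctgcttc

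The H2A pair HIST2H2AA3 plus HIST2H2AA4 had 102, 86.9 and 102 CPM in DMSO libraries 1 to 3 and 207, 266 and 273 CPM in CCS1477 libraries 1 to 3. DMSO and CCS1477 libraries did not overlap. The sum rose 2.57-fold, from 96.8 ± 8.55 to 249 ± 36.6 CPM (SD, n = 3; log2 fold change 1.36 ± 0.12 SE, edgeR quasi-likelihood test over 14925 rows with the copies summed, adjusted p = 1.65e-05). The H3 pair HIST2H3A plus HIST2H3C had 14.3, 12.5 and 10.8 CPM in DMSO and 39.6, 53.6 and 53.7 CPM in CCS1477. It had the largest fold of the 3 pairs, at 3.88 (log2 fold change 1.96 ± 0.16 SE, edgeR adjusted p = 1.12e-05). The H4 pair HIST2H4A plus HIST2H4B had 84.9, 80.5 and 83.9 CPM in DMSO and 157, 199 and 204 CPM in CCS1477. It rose 2.25-fold (log2 fold change 1.17 ± 0.11 SE, edgeR adjusted p = 2.85e-05). In all 3 pairs CCS1477 library 1 was the lowest of its group and still above every DMSO library. With the copies summed, 11 of 23 tested histone rows rose and 0 fell, 5 of 6 on chromosome 1 and 6 of 17 on chromosome 6, against 7.22% of all rows that rose. Without CCS1477 library 3 the number that rose was 7.

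The division of each pair's counts between its copies changed from library to library. HIST2H3A took 50%, 50% and 0% of its pair in DMSO and 33.3%, 0% and 0% in CCS1477. HIST2H2AA3 took 44.1%, 69.8% and 46.4% in DMSO and 80.1%, 81.5% and 68.1% in CCS1477. HIST2H4A took 77.0%, 81.5% and 76.7% in DMSO and 69.3%, 73.5% and 63.0% in CCS1477. The fold changes of single copies therefore carry this division as well as the level of the pair.

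**Figure D2:**
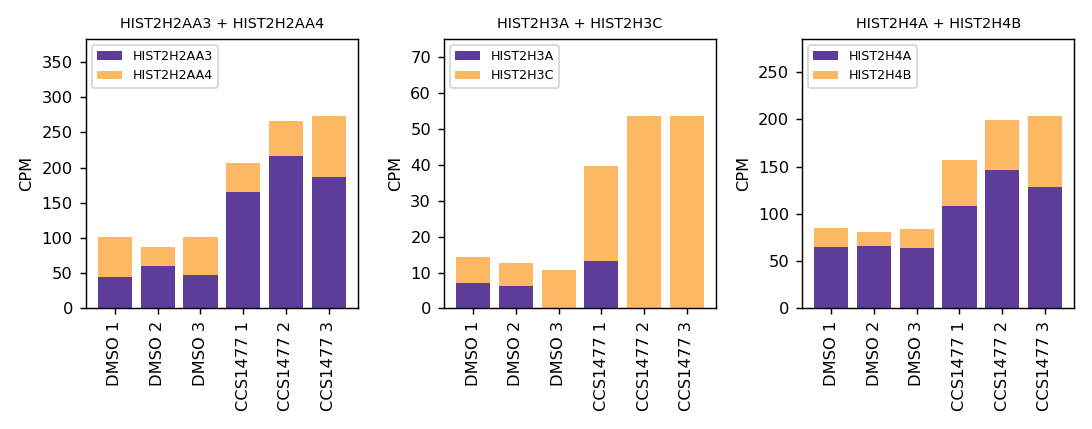
CPM of the 3 pairs of near-identical HIST2 copies in each library, stacked by copy. The full bars of the CCS1477 libraries stand above all DMSO bars in each panel, while the division within a bar differs between libraries of the same group, most plainly for HIST2H3A, which is at 0 in 3 of the 6 libraries.

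Taken singly, HIST2H3C had 7.15, 6.31 and 10.8 CPM in DMSO and 26.4, 53.6 and 53.7 CPM in CCS1477, and rose (log2 fold change 2.49 ± 0.27 SE, edgeR adjusted p = 0.000111). HIST2H3A had 7.15, 6.31 and 0 CPM in DMSO and 13.2, 0 and 0 CPM in CCS1477, with a log2 fold change of -0.09 ± 1.18 SE (edgeR adjusted p = 0.972). The groups overlapped for HIST2H3A and not for HIST2H3C. Without CCS1477 library 1, HIST2H3A was called lower (edgeR adjusted p = 0.0446), with both CCS1477 libraries that were left at 0.

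HIST2H2AA3 had 44.9, 60.8 and 47.2 CPM in DMSO and 165, 217 and 186 CPM in CCS1477, and rose (log2 fold change 1.89 ± 0.13 SE, edgeR adjusted p = 4.74e-06). HIST2H2AA4 had 56.9, 26.2 and 54.5 CPM in DMSO and 41.2, 49.2 and 87.2 CPM in CCS1477. Its groups overlapped, and its log2 fold change of 0.37 ± 0.29 SE did not pass (edgeR adjusted p = 0.425). HIST2H4B had 19.5, 14.9 and 19.6 CPM in DMSO and 48.0, 52.9 and 75.4 CPM with CCS1477 (log2 fold change 1.71 ± 0.18 SE, edgeR adjusted p = 7.06e-05). HIST2H4A had 65.4, 65.5 and 64.3 CPM in DMSO and 108, 147 and 128 CPM with CCS1477 (log2 fold change 0.97 ± 0.11 SE, edgeR adjusted p = 0.000135). Neither H4 copy overlapped between the groups. HIST2H4A and HIST2H3C, and likewise HIST2H3A and HIST2H4B, overlap by 230 bases on opposite strands. Whether counting used strand was not given, so reads from that stretch cannot be told apart.

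The H2B genes of the HIST2 cluster have no such copy among the members and moved the same way. HIST2H2BE (149884459 to 149886652, minus strand) had 40.2, 43.0 and 39.4 CPM in DMSO and 77.0, 81.7 and 92.5 CPM in CCS1477. It rose from 40.9 ± 1.88 to 83.7 ± 7.93 CPM (SD, n = 3, log2 fold change 1.03 ± 0.10 SE, edgeR adjusted p = 5.52e-05). HIST2H2BF had 1.87, 2.22 and 3.31 CPM in DMSO and 6.61, 7.06 and 5.93 CPM with CCS1477 (log2 fold change 1.43 ± 0.28 SE, edgeR adjusted p = 0.00469). For both genes the groups stood apart. Transcripts of HIST2H2BE shared 8.11% of their 50-base stretches with other genes, and those of HIST2H2BF shared 26.9%. HIST3H2A, an H2A gene outside the HIST2 cluster on the same chromosome, had 2.89 to 4.17 CPM in DMSO and 4.36 to 5.13 CPM in CCS1477. Its groups did not overlap, but the log2 fold change of 0.38 ± 0.26 SE did not pass (edgeR adjusted p = 0.361).

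The 6 chromosome 1 genes that rose kept their call in all 13 alternative analyses. Of these, HIST2H3C, HIST2H2AA3, HIST2H4A and HIST2H4B are single copies, whose calls carry the division of reads. On chromosome 6, 6 genes rose, with log2 fold changes below those of the 3 summed pairs, HIST2H2BE and HIST2H2BF. HIST1H2BD, an H2B gene, had 22.0, 17.7 and 21.1 CPM in DMSO and 33.0, 38.0 and 34.5 CPM with CCS1477 (log2 fold change 0.80 ± 0.13 SE, edgeR adjusted p = 0.00155). HIST1H2AG, an H2A gene, had 11.5, 11.6 and 10.9 CPM in DMSO and 18.5, 19.5 and 20.6 CPM with CCS1477 (log2 fold change 0.78 ± 0.14 SE, edgeR adjusted p = 0.00279). These 2 of the 6 genes also kept their call in each alternative, and the other 4 lost it in at least 1. HIST1H3H, an H3 gene, had 10.4, 10.2 and 8.58 CPM in DMSO and 14.6, 15.4 and 16.0 CPM with CCS1477 (log2 fold change 0.65 ± 0.16 SE, edgeR adjusted p = 0.0143). HIST1H2BC, which encodes H2B, had 13.5, 9.81 and 12.6 CPM in DMSO and 15.6, 20.8 and 22.8 CPM with CCS1477 (log2 fold change 0.72 ± 0.18 SE, edgeR adjusted p = 0.0188). Without CCS1477 library 2 or 3 the edgeR adjusted p was 0.0532 and 0.0596 for HIST1H3H, and 0.074 and 0.0934 for HIST1H2BC.

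HIST1H4H, an H4 gene, had 17.8, 19.8 and 21.4 CPM in DMSO and 27.0, 24.8 and 31.8 CPM with CCS1477 (log2 fold change 0.51 ± 0.14 SE, edgeR adjusted p = 0.0269). HIST1H2AC, an H2A gene, had 52.2, 49.6 and 51.6 CPM in DMSO and 65.6, 60.0 and 72.7 CPM with CCS1477 (log2 fold change 0.37 ± 0.10 SE, edgeR adjusted p = 0.0277). None of the 6 genes overlapped between the groups. Leaving out DMSO library 1, CCS1477 library 1 or CCS1477 library 3 gave edgeR adjusted p values of 0.106, 0.0554 and 0.122 for HIST1H4H and 0.0785, 0.0638 and 0.132 for HIST1H2AC. On the log2(TPM + 1) scale limma gave adjusted p = 0.202 for HIST1H4H and 0.0784 for HIST1H2AC.

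Of the 17 tested chromosome 6 genes, 11 did not pass, among them the one with the highest CPM. This was HIST1H1C, which encodes the linker histone H1.2. It had 140, 158 and 107 CPM in DMSO and 129, 145 and 139 CPM in CCS1477. The DMSO range enclosed the CCS1477 range, and the log2 fold change was 0.03 ± 0.13 SE (edgeR adjusted p = 0.919). HIST1H2BK, an H2B gene, had 47.2, 45.7 and 31.9 CPM in DMSO and 40.9, 48.7 and 59.1 CPM in CCS1477, with overlapping groups and a log2 fold change of 0.25 ± 0.17 SE (edgeR adjusted p = 0.343). Transcripts of HIST1H2BK shared 74.1% of their 50-base stretches with other genes, so its counts are uncertain. Per length, HIST1H2BK and HIST1H1C had the highest TPM of all single members in DMSO, at 497 and 474, ahead of HIST2H2AA3 at 238. Summed with its copy HIST2H2AA4, HIST2H2AA3 had 440 TPM in DMSO. The effective length behind the HIST1H2BK value was 0.0534 of the median gene's in DMSO, so its TPM rests on a very short model.

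The other chromosome 6 members that did not pass had mean levels under 10 CPM in both groups. The H2B genes HIST1H2BE, HIST1H2BJ and HIST1H2BN had log2 fold changes of 0.74, 0.71 and 0.26. The H2A genes HIST1H2AI and HIST1H2AE had 0.87 and 0.32. The H3 genes HIST1H3B and HIST1H3G had 1.25 and 0.51, and the H4 genes HIST1H4I and HIST1H4J had 0.92 and 0.81. Their edgeR adjusted p values ran from 0.0721 for HIST1H3B to 0.615 for HIST1H2AE. HIST1H2AI was called higher without DMSO library 2 (edgeR adjusted p = 0.00705), where it stood at 5.12 CPM, while DMSO libraries 1 and 3 had 2.38 and 1.72 CPM. HIST1H4J shared 81.2% and HIST1H2AI 62.3% of their 50-base stretches with other genes.

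The remaining 28 members were not tested. They lay mainly on chromosome 6, with 23 there, 4 on chromosome 1 and 1 on chromosome 12. No library held more than 15 counts of any of them, and 13 never exceeded 3 counts. Their summed level was 5.76 to 6.98 CPM in the DMSO libraries and 7.61 to 8.89 CPM in the CCS1477 libraries. They include 4 of the 5 H1 genes (HIST1H1B, HIST1H1D, HIST1H1E and HIST1H1T), so the H1 result is that of HIST1H1C. HIST4H4 had 0.596, 0.768 and 0.735 CPM in DMSO and 0.896, 0.935 and 1.03 CPM in CCS1477, without overlap between the groups. These values rest on 7, 9 and 6 counts in DMSO and 8, 9 and 9 counts in CCS1477. The counts overlap, so the groups stood apart only after scaling. With no filter on counts, edgeR called 1443 genes higher in all. They included 15 of the 54 members, but none of these 28.

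Summed over all members of a chromosome, the levels on chromosome 1 were 248, 230 and 244 CPM in DMSO and 492, 615 and 638 CPM in CCS1477. The mean went from 241 ± 9.35 to 582 ± 78.4 CPM (SD, n = 3), a ratio of 2.42. On chromosome 6 the sums were 338, 348 and 294 CPM in DMSO and 381, 412 and 435 CPM with CCS1477, a ratio of means of 1.25. On both chromosomes every CCS1477 library was above every DMSO library. HIST1H1C held a large share of the chromosome 6 sum: the 35 core histone genes there had 191 ± 6.35 CPM in DMSO and 271 ± 22.4 CPM with CCS1477, a ratio of 1.42. Without the 3 near-identical pairs, the other 7 members on chromosome 1 had 47.0, 50.3 and 48.0 CPM in DMSO and 89.5, 95.9 and 107 CPM with CCS1477, a ratio of 2.01.

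Within each library, the chromosome 1 sum divided by the chromosome 6 sum was 0.733, 0.662 and 0.832 in DMSO and 1.29, 1.49 and 1.47 in CCS1477. This ratio does not depend on the scaling between libraries. In DMSO the chromosome 6 genes held more of the histone counts, and in CCS1477 the chromosome 1 genes did. In TPM the ratios were 0.520, 0.473 and 0.637 in DMSO and 1.01, 1.09 and 1.04 in CCS1477, so on that scale the sums of the 2 chromosomes were close to equal after CCS1477. The members were chosen with earlier results known, so no test was made of the sums or of the difference between chromosomes.

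**Figure D3:**
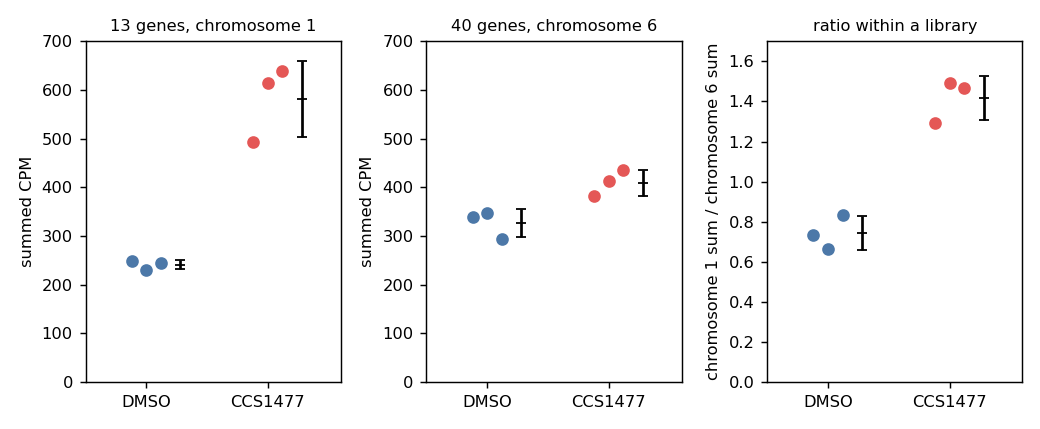
Summed CPM of the 13 chromosome 1 and 40 chromosome 6 histone genes, and the ratio of the 2 sums within each library (points are libraries, bars the mean ± SD of 3). The chromosome 1 sum lies at 230 to 248 CPM in DMSO and 492 to 638 CPM in CCS1477, and the ratio is under 1 in each DMSO library and above 1 in each CCS1477 library.

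By class, the sums of the 4 core histones were higher after CCS1477, and those of H1 overlapped. H3 had 25.6 ± 2.71 CPM in DMSO and 70.6 ± 9.94 CPM with CCS1477 (SD, n = 3), a ratio of 2.76. This was the largest ratio of the 5 classes, but it rested largely on the pair HIST2H3A plus HIST2H3C. Without the highest member of each class the log2 ratio was 0.58 for H3 (from 1.47) and 1.16 for H4 (from 1.05). The members left out there were HIST2H3C and HIST2H4A, while their near-identical copies stayed in. These values carry the division of reads between copies and do not rank the classes. H4 had 107 ± 3.76 and 220.4 ± 29.2 CPM, and H2A 169 ± 7.27 and 349 ± 40.1 CPM, ratios of 2.07 and 2.06. H2B had 131 ± 7.40 and 214 ± 19.4 CPM, a ratio of 1.63. For these 4 classes the groups did not overlap. H1 had 136 ± 25.3 and 139 ± 7.72 CPM, a ratio of 1.02, and its groups overlapped.

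Within every core class the ratio was larger on chromosome 1 than on chromosome 6. For H3 it was 3.88 on chromosome 1 and 1.64 on chromosome 6. For H2A it was 2.52 and 1.39, for H4 2.25 and 1.44, and for H2B 2.08 and 1.41. The spread of the class ratios was thus wider on chromosome 1, from 2.08 to 3.88, than on chromosome 6, from 1.39 to 1.64. The number of tested genes that rose was 3 of 7 for H2A, 4 of 8 for H2B, 2 of 5 for H3, 3 of 5 for H4 and 0 of 1 for H1. Among all tested genes 7.23% rose. Each near-identical copy is counted singly here.

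**Figure D4:**
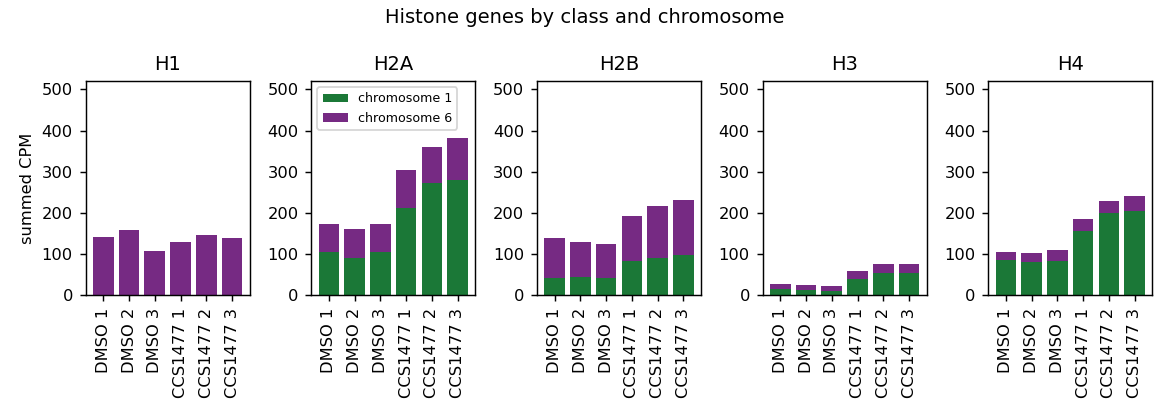
Summed CPM of the histone genes of each class in each library, stacked by chromosome (HIST4H4 on chromosome 12, with means of 0.70 (DMSO) and 0.95 CPM (CCS1477), is left out of the H4 bars). The chromosome 1 segments of H2A, H3 and H4 take most of the higher bars in CCS1477, while the H1 bars, all from chromosome 6, show no separation.

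The make-up of the histone RNA, as shares of the members' summed TPM, also differed between the groups. H2A held 28.3% on average in DMSO and 39.8% in CCS1477, and H3 1.88% and 2.78%. H1 held 24.3% and 14.7%, and H2B 33.2% and 28.2%. For these 4 classes the shares did not overlap, whereas the H4 shares, 12.3% and 14.5%, overlapped. The H1 share was lower although the H1 sum itself, at 477 TPM in DMSO and 524 TPM in CCS1477, was not. The share of chromosome 1 was 32.1% to 38.9% in the DMSO libraries and 50.2% to 52.1% in the CCS1477 libraries.

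The stem-loop that ends the main histone mRNA was searched in the GENCODE 29 transcripts, since a model that runs on past it can hold the polyadenylated form that poly-T beads capture. The 4 most frequent forms are shown 5′ to 3′ in DNA letters, with the paired stem in capitals and the loop in lower case.
Stem-loop in 17 genes: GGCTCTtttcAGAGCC
Stem-loop in 5 genes: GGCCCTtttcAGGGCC
Stem-loop in 4 genes: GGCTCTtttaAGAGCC
Stem-loop in 3 genes: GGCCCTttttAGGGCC
A stem-loop was found in the models of 31 of the 54 members. Among tested members it was found in 22 of 26, and in 16 of these at least 1 model ran on for more than 100 bases. Among members not tested it was found in 9 of 28, and in 7 of these a model ran on that far. All 12 genes that rose had a stem-loop in their models, 10 of them with more than 100 bases after it, compared with 10 and 6 of the 14 that did not pass. These sets count near-identical copies singly, and the calls of single copies carry the division of reads. HIST2H2AA4 and HIST2H3A did not pass while their copies rose, and HIST2H4A and HIST2H4B both rose. The counts describe the models, and a model that stops short of the stem-loop would not show it. HIST1H2BD had 39 bases after its stem-loop, while its longer model of 789 bases held no stem-loop and was not counted. No difference between the sets was tested. HIST1H1C and HIST1H2BK have models of 642 and 381 bases without a stem-loop, so reads from sequence beyond those models would not count for them.

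From textbook knowledge, 7 members are also made as polyadenylated transcripts: HIST1H1C, HIST1H2AC, HIST1H2BC, HIST1H2BD, HIST1H2BK, HIST2H2AA3 and HIST2H2BE. Of these, 5 rose and 0 fell, beside 7.23% and 10.7% of all tested genes, and HIST1H1C and HIST1H2BK did not pass. The genes that rose thus include members both inside and outside this list. The files give 1 value per gene, so the 2 forms of a transcript were not told apart.

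The deposited counts and TPM also give the effective transcript length of a gene in a library, as their quotient. Relative to the library's median, HIST1H2BJ, HIST1H2BN and HIST1H2BE had log2 ratios of -0.58, -0.53 and -0.38 (CCS1477 over DMSO), below the 5th percentile of all genes at -0.28. The other 22 members with a value lay between the 5th percentile and the 95th, at 0.27. The groups did not overlap for HIST1H2BJ and HIST1H2BN. They also stood apart, lower with CCS1477, for HIST2H4A, HIST2H2AA3, HIST2H2AA4, HIST3H2A, HIST1H3B, HIST1H1C, HIST1H2AE, HIST1H2BK, HIST1H2AI and HIST1H4J. Their log2 ratios ran from -0.03 for HIST3H2A to -0.22 for HIST1H4J. All had short effective lengths, in DMSO from 0.0497 (HIST1H4J) to 0.306 (HIST3H2A) of the median gene's. HIST2H4B was higher without overlap, at a log2 ratio of 0.13. The share of all genes without overlap in effective length was not computed, so these separations are not read as particular to histone genes. A shorter effective length gives a higher TPM for the same count, so sums and shares in TPM carry these shifts. HIST1H2BJ was called higher by limma on log2(TPM + 1), with a log2 difference of 1.29 and adjusted p = 0.00547, where edgeR on counts gave 0.71 and adjusted p = 0.096.

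Promoter sequences were matched for 51 of the 54 members. In windows from 250 bases before to 50 bases after the start, and counting both strands, the octamer ATTTGCAT, to which the factor POU2F1 binds, was present in 21 of the 51, against 1.77% of all 35116 windows in the RefSeq table. It was found in 11 of 15 H2B and 9 of 14 H2A promoters, in 1 of 9 H3 promoters, and in 0 of 8 H4 and 0 of 5 H1 promoters. CCAAT was present in 44 of 51 members (34.6% of all windows) and TATAAA in 33 of 51 (11.5% of all windows). CCAAT was in 1 of 8 H4 promoters and in every matched promoter of the other classes. Of the genes that rose, 5 of 12 held the octamer, 9 of 12 CCAAT and 8 of 12 TATAAA. Of the tested genes that did not pass, 4, 13 and 9 of 14 did. Windows of head-to-head H2A and H2B genes can overlap, so 1 site can count for both genes. HIST1H2BC and HIST1H2AC, which both rose and each held 1 octamer, have such overlapping windows. Near-identical copies are counted singly here. HIST2H2AA3 and HIST2H3C rose while their copies HIST2H2AA4 and HIST2H3A did not pass, and HIST2H4A and HIST2H4B both rose. The sets thus share near-identical promoters, and no difference between them was tested.

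Many H2A and H2B genes stand head to head and share a promoter region. There were 11 such pairs with starts within 1000 bases, and in 2 of them both genes were tested. HIST1H2BC and HIST1H2AC both rose. In the pair HIST1H2BJ and HIST1H2AG, only the latter passed. In 5 pairs 1 gene was tested: HIST2H2BE had 27.3 TPM in DMSO and 58.5 TPM in CCS1477, and its partner HIST2H2AC had 5.71 and 11.6 TPM. The HIST2H2AC values rest on 9, 6 and 2 counts in DMSO and 1, 10 and 13 counts in CCS1477, and its groups overlapped. HIST1H2BK had 497 and 708 TPM, and its partner HIST1H2AH had 0 and 0.977 TPM, the latter from 1 count each in CCS1477 libraries 1 and 3. The 2 genes of a pair could thus differ widely in level.

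Genes around the clusters moved in both directions. Within 1 Mb of the chromosome 1 members, 8 of 52 tested genes that are not histone genes rose and 7 fell, with a median log2 fold change of 0.05. Around the HIST2 cluster alone, 3 of 32 rose and 5 fell. For comparison, 7.23% of all tested genes rose and 10.7% fell. ADAMTSL4 and ECM1, genes of the extracellular matrix, fell there, with log2 fold changes of -1.23 and -1.54 (edgeR adjusted p = 0.000166 and 0.000325). Within 1 Mb of the chromosome 6 members, 4 of 40 rose and 3 fell, with a median of 0.22. BTN3A2, which encodes a butyrophilin, fell with -0.75, and ZNF322 and PRSS16 rose with 0.53 and 0.58 (edgeR adjusted p = 0.00157, 0.00616 and 0.00835). The median over all tested genes was -0.0030.

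Histone genes outside the HIST families, and genes that process histone mRNA or place histones on DNA, were mostly not called. So were most of all tested genes, of which 7.23% rose and 10.7% fell. Of 11 tested genes in a list of histone genes outside the HIST families, 1 rose and 0 fell (median log2 fold change 0.17). This was H2AFX, whose product is phosphorylated at DNA breaks, with 142, 103 and 102 CPM in DMSO and 146, 182 and 206 CPM in CCS1477 (log2 fold change 0.62, edgeR adjusted p = 0.0129). Of 22 genes of histone mRNA transcription and 3′ end processing, among them NPAT and SLBP, 0 rose and 1 fell (median 0.0026). This was ERI1, an exonuclease that trims histone mRNA, with a log2 fold change of -0.31 (edgeR adjusted p = 0.0443). Of 20 chaperone and assembly genes, 1 rose and 2 fell (median 0.05). HAT1, the acetyltransferase of newly made H4, rose with 0.42, and ANP32E, a chaperone of H2A.Z, and DAXX, a chaperone of H3.3, fell with -0.47 and -0.32 (edgeR adjusted p = 0.0153, 0.00614 and 0.0211).

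Of 16 S phase entry genes, 4 rose and 2 fell, with a median log2 fold change of 0.14. Among all tested genes 7.23% rose and 10.7% fell. CCNE2, which encodes a cyclin E that drives entry into S phase, had 18.9, 16.3 and 25.5 CPM in DMSO and 39.1, 39.4 and 32.4 CPM in CCS1477 (log2 fold change 0.88, edgeR adjusted p = 0.00357). RRM2 and TYMS, enzymes of nucleotide synthesis, rose with 0.43 and 0.36, and CDT1, a replication licensing factor, rose with 0.36 (edgeR adjusted p = 0.00396, 0.0116 and 0.0471). MCM5 and MCM2, subunits of the replicative helicase, fell with -0.34 and -0.30 (edgeR adjusted p = 0.0216 and 0.0299). The list thus moved in both directions, and its part in the histone result was not tested.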

How the data were processed

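Poly-A RNA-seq libraries of DU145 cells (3 DMSO, 3 CCS1477) were grouped by sample titles. The authors deposited estimated counts per gene, not normalized, of which 10.2% to 10.7% of nonzero values per library were not whole, and TPM. The submitters' processing notes name Trimmomatic 0.39. Aligner, quantifier, genome build and strandedness were not given in the sources used here. Estimated counts were rounded and filtered with filterByExpr (minimum count 10, minimum total 15) in edgeR 4.0.16 (R 4.3.3), scaled by TMM and tested by the quasi-likelihood test with Benjamini-Hochberg adjustment over all genes at 0.05. CPM used TMM-scaled library totals. Copies were summed before rounding. Alternatives used DESeq2 1.42.0 and limma 3.58.1 among others. The test was checked on simulated data.

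The members and lists were chosen with earlier results of these data known. Every tested member is named. Values per library are given for members that passed, for those averaging 20 CPM or more over all libraries, and for summed copies. From each related list up to 6 genes that passed are named, and up to 3 neighbours per chromosome. A few genes that this rule covers are not reported here. Samples with the same replicate number did not deviate together, so no block was used.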

Additional observations from a re-analysis of the deposited data

How the results depend on the processing

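The number of histone genes that rose (12) was 12 with library size scaling, RLE scaling and DESeq2, 15 with no filter, 10 and 11 with limma on log2(TPM + 1) and log2(TPM + 0.1), and 8 to 13 with a library left out. The number that fell (0) was 0 in these analyses except without CCS1477 replicate 1, where it was 1, so it ran from 0 to 1. By DESeq2 it was 0. An unadjusted edgeR p under 0.05 was found for 15 tested members, but the share of all genes with such a p was not computed. With copies summed, 7 to 12 rose when a library was left out, with 7 without CCS1477 library 3. The 3 pairs rose in each alternative run.

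Over all genes, limma gave 293 higher and 427 lower on log2(TPM + 1) and 280 and 410 on log2(TPM + 0.1), and leaving out a library gave 487 to 1311 higher and 925 to 1772 lower. The counts were 555 and 973 without DMSO 1, 489 and 925 without CCS1477 2, and 487 and 1042 without CCS1477 3. With library size scaling 1458 were higher and 1361 lower. RLE scaling gave 1123 and 1539, DESeq2 1119 and 1535, and no filter 1443 and 1846. The replicate block gave 799 higher and 1306 lower over all genes, 11 histone genes higher and 10 rows with copies summed. HIST1H2AC lost its call there (adjusted p = 0.0543). Same-numbered samples had correlations of -0.09, -0.22 and 0.02.

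The log2 ratio of the chromosome 1 sum (1.27) was 1.44 in TPM, 1.05 without the member with the highest mean CPM, and 1.01 without the copies, the last chosen after seeing the data. That of chromosome 6 (0.33) was 0.46 in TPM and 0.50 without its highest member. That of the chromosome 1 to chromosome 6 ratio (0.93) was 0.54 without the highest member of each and 0.68 without the copies. Without their highest member the H1, H2A, H2B, H3 and H4 sums had -0.21, 0.43, 0.53, 0.58 and 1.16 (from 0.03, 1.04, 0.71, 1.47 and 1.05). For H2A, H3 and H4 that member was a near-identical copy whose partner stayed in, so these values do not rank the classes. The chromosome 1 member left out, HIST2H2AA3, was also such a copy. In TPM, H2A had 1.38. The cause of these shifts was not tested. Adding the genes described as pseudogenes, or leaving out the HIST3 genes, also chosen after seeing the data, moved these ratios by less than the spread between replicates.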

Other observations

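Genes of the HIST2 cluster that the files describe as pseudogenes, and that were therefore no members, also had counts. HIST2H2BC had 67.9, 77.1 and 64.8 CPM in DMSO and 174, 168 and 167 CPM in CCS1477, and rose with a log2 fold change of 1.28 (edgeR adjusted p = 5.29e-06). HIST2H2BD had 27.96, 41.3 and 37.8 CPM in DMSO and 94.4, 96.1 and 89.9 CPM in CCS1477, and rose with a log2 fold change of 1.39 (edgeR adjusted p = 3.97e-05). The groups did not overlap for either gene. These genes were chosen after their values were seen. Whether reads were divided between them, or with other genes, was not examined, so their rises need not be independent.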
